A study of Mus musculus with 24 samples.

Results

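Haematopoietic stem cells (HSC) and myeloid progenitors (MP) of Dnmt1 hypomorph mice were compared across all genes, to ask which stem to myeloid differences remain when Dnmt1 is reduced. The comparison used 3 MP arrays and 3 HSC arrays, chosen by their labelled cell type and genotype alone. These are 6 of the 13 arrays in the normalization labelled RMA set 1, and the deposited table holds 24 columns because HSC and MP arrays appear again in a second normalization. The hypomorph mice were Dnmt1-/chip, a null allele over the hypomorphic chip allele. Wildtype HSC (2 arrays) and wildtype MP (3 arrays) served as the comparison, and 2 wildtype B cell progenitor arrays entered the fit only to estimate the spread. The mice were 129ola, 8 to 12 weeks old, and all cells came from sorted bone marrow. Total RNA was labelled with Affymetrix protocols that included the one for small samples. The labels name no animals, so p-values measure the spread between arrays, which may be technical in part. The level of the Y-linked gene Eif2s3y, given below, set arrays of the same group apart. The sort gates are not given in the sources used here.

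HSC renew themselves and give rise to all blood cells, and most of them rest outside the cell cycle. Myeloid progenitors divide actively and feed the granulocyte, monocyte, erythroid and megakaryocyte lineages, and those on the way to granulocytes make the proteases that are stored in primary granules. Dnmt1 copies the methylation pattern of the old DNA strand onto the new one during replication.

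Dnmt1 itself read 9.02, 8.48 and 9.31 on the hypomorph HSC arrays and 8.01, 8.24 and 8.17 on the hypomorph MP arrays, in log2 intensity, where a difference of 1 is a 2-fold change. Wildtype arrays of both cell types lay between 11.30 and 11.80, above every hypomorph array. Within the hypomorph, Dnmt1 was lower in MP by 0.80 ± 0.22 (log2 difference ± SE, limma adjusted p = 0.0295), a call that several alternatives ended, with an adjusted p of up to 0.114 without MP hypomorph replicate 1. Stem cell markers followed the labels: all 7 that were measured (Mecom, Hlf, Procr, Slamf1, Fgd5, Meis1 and Tek) were called lower in hypomorph MP, although the call of Tek was lost when any of 4 arrays was left out (adjusted p up to 0.0842). In wildtype MP 4 of the 7 were called lower, and Slamf1, Meis1 and Tek were not called. Of the 9 granulocyte-monocyte progenitor markers, 8 were called higher, and Csf3r was not (-0.03). Of 6 erythroid and megakaryocyte progenitor markers, 3 were called higher in hypomorph MP and 4 in wildtype MP. Gata1, Epor (0.25) and Itga2b (0.06) were not called in the hypomorph. The B cell genes Pax5, Ebf1 and Cd79a lay between 3.10 and 4.67 on the 6 hypomorph arrays, around or below the array-wide median of 4.64, and none was called. Neutrophil granule genes were present in both hypomorph groups: S100a8 read 9.45 to 10.75 on the HSC arrays and 9.71 to 11.03 on the MP arrays, and S100a8, Ngp and Camp were not called. In the bulk samples used here, fewer cells of a type and less RNA per cell cannot be told apart. The spread between arrays was wider in hypomorph HSC, with a median gene SD of 0.286, than in hypomorph MP, with 0.186.

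Of 18194 genes on the arrays, 12745 passed a filter on low intensity, and 1485 of these (11.7%) differed between hypomorph MP and hypomorph HSC at a limma adjusted p below 0.05. Of these, 533 (4.18%) were higher and 952 (7.47%) lower in MP. On 3515 genes (27.6%) the 3 MP arrays lay entirely on one side of the 3 HSC arrays. The wildtype comparison shares no array with the hypomorph one, but both use the same estimate of each gene's spread, so their calls are not independent. The wildtype comparison called 4050 genes (31.8%), with 1757 (13.8%) higher and 2293 (18.0%) lower in MP. Its arrays did not overlap on 7224 genes (56.7%). With fewer HSC arrays in the wildtype (2 against 3), groups separate more easily without a difference, so the 2 shares are not directly comparable. Differences in the hypomorph were smaller across the transcriptome: their SD over genes was 0.654 log2 units against 0.980 in the wildtype, and 1121 genes against 2746 were at least 2-fold apart. The count of 1485 was 972 without HSC hypomorph replicate 2 and 3270 with array quality weights, and the wildtype count of 4050 was 2548 without HSC wildtype replicate 2.

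Most genes called in the hypomorph were also called in the wildtype. Both genotypes called 357 genes higher and 677 lower in MP. These are 67.0% of the hypomorph's higher and 71.1% of its lower genes, but 20.3% of the wildtype's higher and 29.5% of its lower genes. Opposite calls were made for 17 genes. Among wildtype genes at least 4-fold apart, 45.9% of the 342 higher and 75.8% of the 314 lower genes were also called in the hypomorph. Genes higher in wildtype MP had a median log2 difference of 1.30 there and 0.25 in the hypomorph, and genes lower in wildtype MP had -1.12 and -0.44. Those genes were selected on the wildtype arrays, so these medians are a description. Selected on the hypomorph arrays, the 533 higher genes had medians of 1.22 in the hypomorph and 1.12 in the wildtype, and the 952 lower genes had -1.23 and -1.31. Between the genotypes' differences, Pearson's r was 0.624 and Spearman's rho 0.462 over the 12745 genes, which are not independent of each other.

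**Figure D1:**
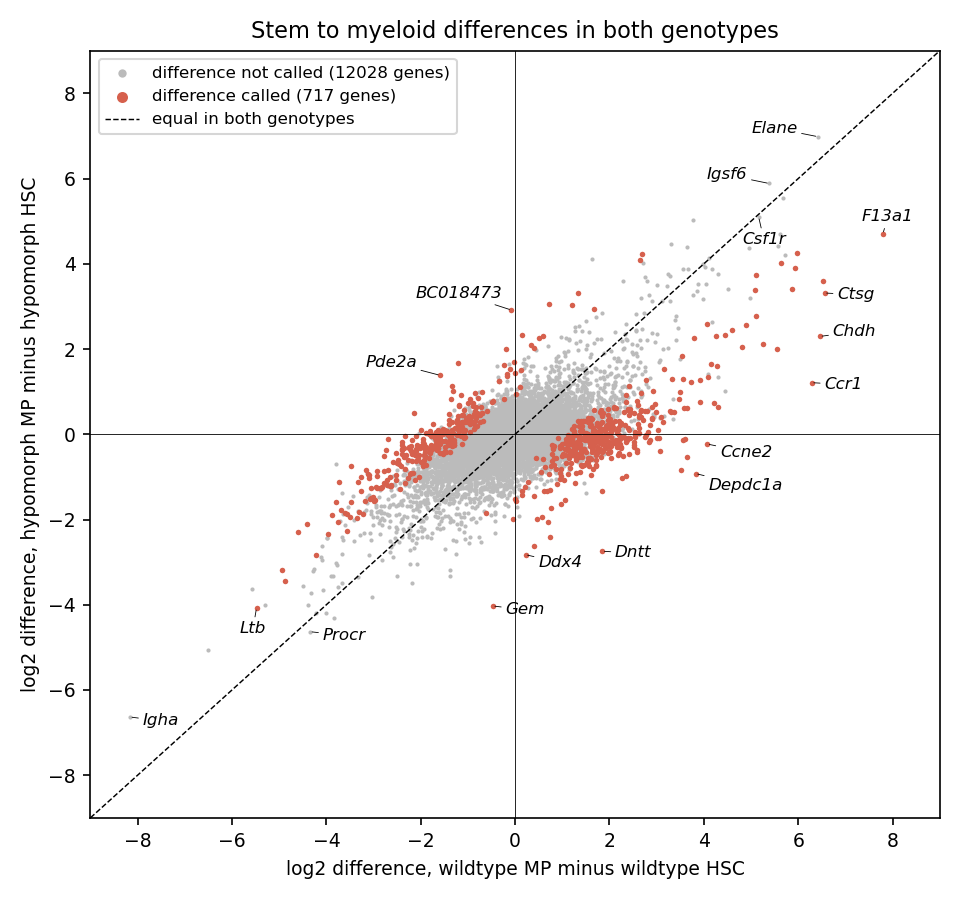
Each point is 1 of 12745 genes, with the wildtype log2 difference (MP minus HSC) on the horizontal axis and the hypomorph log2 difference on the vertical axis. The 717 genes in red have a called difference between genotypes, of which 349 keep the wildtype sign at a smaller size and 350 have the opposite sign, while Elane, Igsf6, Csf1r, Procr and Igha lie near the diagonal.

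The difference between the 2 genotypes' comparisons was itself called for 717 genes (5.63%), of which 300 (2.35%) were higher and 417 (3.27%) lower in the hypomorph. In 349 of the 717 the hypomorph difference had the same sign and was smaller, in 18 it was larger, and in 350 the signs were opposite. This count depended on single arrays. It was 241, 1242 and 246 without MP wildtype replicate 1, 2 and 3, 373 and 292 without MP hypomorph replicate 1 and 2, 283 and 1444 without HSC hypomorph replicate 2 and 3, and 1114 and 320 without HSC wildtype replicate 1 and 2. Of the 2999 genes called in the wildtype alone, 542 had a called difference, so for the other genes a loss in the hypomorph was not shown. The group means of HSC shifted more than those of MP in 371 of the 417 genes with a lower difference, in 260 of the 300 with a higher one and in 7677 of all 12745. The 417 genes with a lower difference had a median shift between genotypes (hypomorph minus wildtype) of 1.38 in HSC and -0.44 in MP. The 300 with a higher difference had -1.20 in HSC and 0.29 in MP. These shifts use the arrays that chose the genes and are a description.

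The myeloid granule program was higher in hypomorph MP as in wildtype MP. Of 36 tested genes of granulocyte-monocyte progenitors and their primary granules, 26 were higher in hypomorph MP and 0 lower, against 30 and 0 in the wildtype, with 24 called in both. None was lower at an unadjusted p below 0.05 either. The list's median log2 difference was 1.59 in the hypomorph and 1.84 in the wildtype, beside -0.03 and -0.12 over all genes. Elane, the gene of neutrophil elastase, read 6.74, 4.95 and 5.0 on the hypomorph HSC arrays and 12.52, 12.59 and 12.53 on the MP arrays. The groups lay far apart, and the difference of 6.98 ± 0.43 (127-fold, limma adjusted p = 2.57e-07) was the largest of all genes tested, with 6.42 in the wildtype. Igsf6, a transmembrane protein of the immunoglobulin superfamily found on myeloid cells, went from 3.28, 3.72 and 3.23 to 9.52, 9.23 and 9.15, a difference of 5.89 ± 0.20 (adjusted p = 1.31e-09). Csf1r, the receptor for macrophage colony-stimulating factor, rose from 6.04, 6.42 and 6.27 to 11.39, 11.22 and 11.41. Its difference was 5.10 ± 0.21 in the hypomorph and 5.16 in the wildtype, and 2.90 in the hypomorph when all its probe sets were averaged. Prtn3, the gene of proteinase 3, was higher by 3.48 against 3.23 in the wildtype, and Mpo, myeloperoxidase, by 1.69 against 2.37. No difference between genotypes was called for these 5 genes. Hp (haptoglobin, 4.71), Trem3 (a myeloid receptor, 4.47), Anxa3 (an annexin of neutrophils, 4.43), Prom1 (a membrane glycoprotein, 4.40), Dmkn (dermokine, 5.03) and Sgms2 (a sphingomyelin synthase, 5.53) completed the genes with the largest increases together with F13a1 (4.70). All 10 were called higher in the wildtype too, and F13a1 alone had a called difference between genotypes.

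Cathepsin G showed the other pattern within the same granule list, a retained rise that was smaller. Ctsg read 10.31, 10.56 and 10.95 in hypomorph HSC and 13.88, 13.95 and 13.93 in hypomorph MP. Wildtype MP were alike, at 13.73, 13.79 and 13.72, but wildtype HSC stood at 8.08 and 6.29, below every hypomorph HSC array. The MP difference was therefore 3.32 ± 0.35 in the hypomorph and 6.56 ± 0.39 in the wildtype, and the difference between genotypes was -3.24 ± 0.52 (adjusted p = 0.00443). Ms4a3, a membrane protein of granulocyte progenitors, rose by 3.59 in the hypomorph and 6.52 in the wildtype (difference -2.93, adjusted p = 0.0113). In all, 6 genes of the list had a smaller difference in the hypomorph and 2 a larger one.

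The 250 bases upstream of the start sites of Elane, Igsf6 and Ctsg are given here because these genes carry the retained and the reduced myeloid difference. Sequences are from RefSeq (GRCm38.p6), read 5′ to 3′ on the gene's strand, and capitals mark GAGGAA or its reverse complement TTCCTC, the core letters bound by the myeloid factor PU.1. The window of Elane is chr10:79886062-79886311 (+ strand), that of Igsf6 is chr7:121074531-121074780 (- strand), and that of Ctsg is chr14:56102575-56102824 (- strand).
Elane: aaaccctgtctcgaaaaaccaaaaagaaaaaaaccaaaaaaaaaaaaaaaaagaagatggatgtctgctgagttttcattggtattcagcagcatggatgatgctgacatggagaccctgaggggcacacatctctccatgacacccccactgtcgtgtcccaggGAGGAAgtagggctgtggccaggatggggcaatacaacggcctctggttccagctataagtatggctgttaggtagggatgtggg
Igsf6: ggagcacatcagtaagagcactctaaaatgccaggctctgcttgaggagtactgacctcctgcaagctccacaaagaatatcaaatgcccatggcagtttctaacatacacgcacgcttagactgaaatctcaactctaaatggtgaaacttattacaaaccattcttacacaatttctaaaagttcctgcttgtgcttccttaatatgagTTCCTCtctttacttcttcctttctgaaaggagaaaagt
Ctsg: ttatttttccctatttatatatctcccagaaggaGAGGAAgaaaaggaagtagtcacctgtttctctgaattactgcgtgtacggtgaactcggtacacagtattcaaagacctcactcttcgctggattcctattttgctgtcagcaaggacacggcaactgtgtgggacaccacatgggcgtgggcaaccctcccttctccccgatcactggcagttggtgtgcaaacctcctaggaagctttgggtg
Each window holds 1 match on either strand. Of the 31 genes of the granule list with a promoter in the table, 13 (41.9%) held the letters, beside 22.4% of the 10299 tested genes with a promoter. The granule promoters had a median of 5 CpG in 250 bases against 15 over all tested genes. Elane had 3, Igsf6 2 and Ctsg 7. A match is a description of the sequence and not a site of binding.

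Transcription factors of the myeloid lineage kept their direction in part. Of 22 tested, 6 were higher and 3 lower in hypomorph MP, and all 9 were called the same way in the wildtype, which called 7 and 7. Cebpa, the factor required for granulocyte commitment, read 7.48, 6.87 and 6.85 in HSC and 9.03, 8.49 and 8.86 in MP, a difference of 1.73 ± 0.26 (adjusted p = 6.41e-04). Irf8, which directs monocyte and dendritic cell development, was higher by 3.52 ± 0.31, Cebpd by 2.82 ± 0.24 and Id2, an inhibitor of basic helix-loop-helix factors, by 2.02 ± 0.30. Averaged over all probe sets, Cebpd gave 1.78 and Id2 0.96, both still called. None of these 4 had a called difference between genotypes. Vdr, the vitamin D receptor (-1.33), and Nab2, a corepressor of the Egr factors (-1.19), were lower. Among 25 myeloid cytokine and chemokine receptors, 6 were higher and 1, Flt3, was lower by 1.31 ± 0.29, against 10 and 1 in the wildtype. Of the higher ones, 4 were called in both, and Flt3 was not called in the wildtype (-0.46). Il6ra, a subunit of the interleukin-6 receptor, was called higher in the hypomorph (1.64, or 0.88 over all its probe sets) but not in the wildtype (0.22), and its difference between genotypes was not called (adjusted p = 0.113).

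Stem cell genes were lower in hypomorph MP as in wildtype MP. Of 47 tested stem cell identity genes, 33 were lower and 2 higher in hypomorph MP, against 35 and 0 in the wildtype. Both genotypes called 28 of them lower, and the list's median log2 difference was -1.56 in the hypomorph and -1.89 in the wildtype. Procr, the endothelial protein C receptor used to sort HSC, read 10.70, 10.59 and 10.29 in HSC and 5.18, 6.74 and 5.76 in MP, a difference of -4.63 ± 0.36 (24.8-fold lower in MP, adjusted p = 1.69e-06). Fgd5, a guanine nucleotide exchange factor that marks HSC, went from 7.86, 8.56 and 8.53 to 5.16, 4.41 and 4.64. Its levels were lower in the hypomorph than in the wildtype in both cell types, yet the differences were alike at -3.58 and -3.76. Mecom (-3.57, or -1.18 over all probe sets) and Hlf (-3.06), transcription factors of HSC maintenance, were also lower in every MP array than in any HSC array. The 2 genes called higher, Evl (1.18) and Vwf (1.03), lost the call in several alternatives and were not called in the wildtype.

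A minority of the stem cell genes differed between genotypes: 6 were reduced less in the hypomorph and 1, Slamf1, more. The count of 6 was 3 when any of 5 arrays was left out (HSC hypomorph replicate 2, HSC wildtype replicate 2, MP hypomorph replicate 2 or 3, or MP wildtype replicate 1). Pdzk1ip1, a membrane protein of HSC, read 9.999, 10.159 and 10.534 in hypomorph HSC and 8.36, 8.46 and 8.32 in MP. It fell by 1.85 ± 0.20, against -3.61 in the wildtype, where HSC read 11.88 and 11.63 (difference 1.76, adjusted p = 0.00577). Socs2, a cytokine signalling inhibitor, had -1.12 in the hypomorph, which was not called (adjusted p = 0.0619), and -3.73 in the wildtype (difference 2.62, adjusted p = 0.0153). The call of the difference was lost when all probe sets were averaged (0.80, adjusted p = 0.0969). In the hypomorph, the other probe sets of Socs2 had -2.43 (limma adjusted p = 4.53e-04, over probe sets) and -0.10 (0.846). Slamf1, the CD150 antigen of HSC, was the reverse: 9.23, 9.20 and 9.23 in hypomorph HSC against 7.31, 7.88 and 7.89 in MP (-1.52 ± 0.22), and -0.01 in the wildtype, where HSC read 8.03 and 8.30. Its difference between genotypes was -1.51 (adjusted p = 0.0184), or -0.83 over all probe sets, and the call was lost there, with the replicate block and without MP wildtype replicate 1 or 3 (adjusted p up to 0.0631). Of 13 tested Hox genes and cofactors, 4 were lower (5 in the wildtype, 2 in both), led by Hoxb5, a marker of long-term HSC, at -2.55 ± 0.28.

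**Figure D2:**
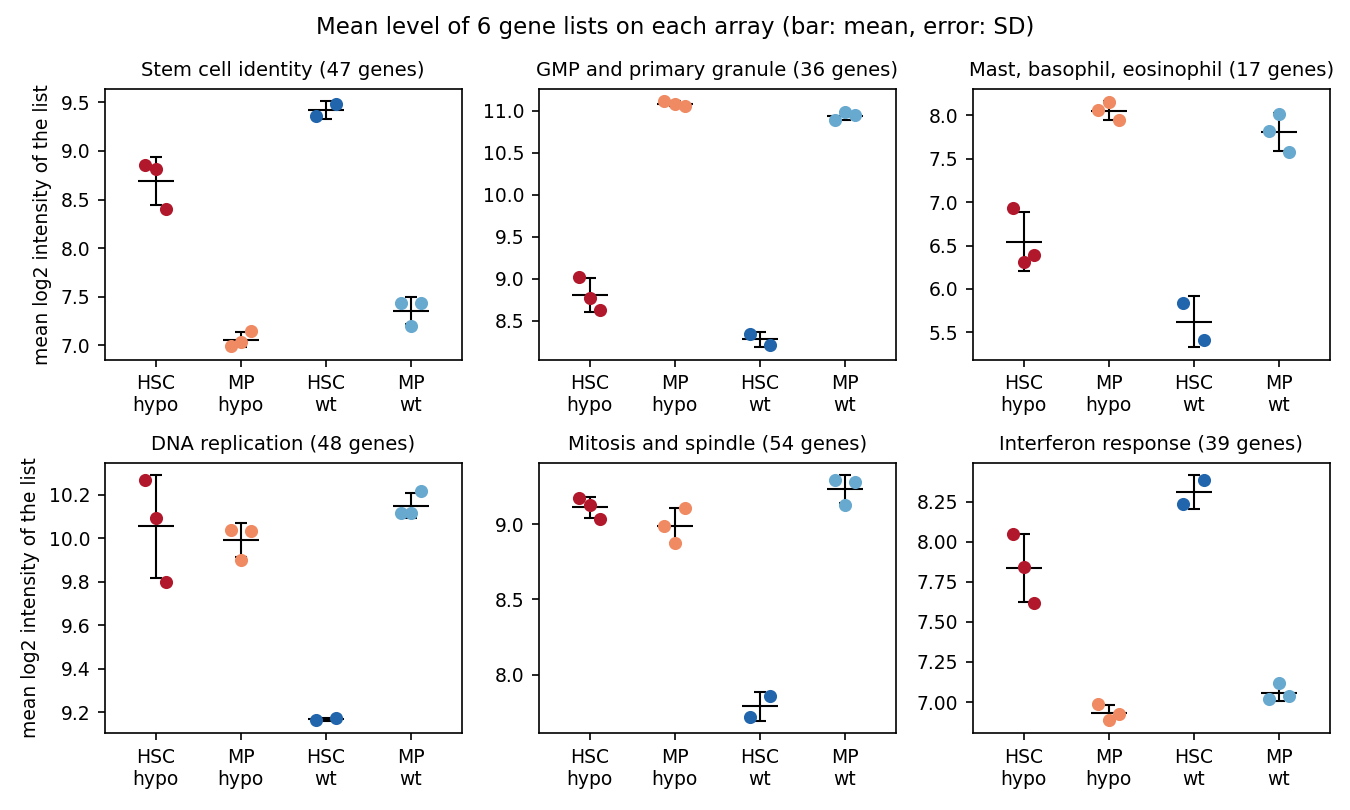
Each panel shows the mean log2 intensity of a gene list on each array of the 4 groups (hypo, Dnmt1 hypomorph; wt, wildtype; bar, mean; error, SD), on axes that do not start at 0. In the mitosis panel both hypomorph groups and wildtype MP lie between 8.88 and 9.29, while the 2 wildtype HSC arrays lie at 7.72 and 7.86.

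Besides Procr, the 10 genes with the largest falls included secreted antibody genes. Igha, the IgA heavy chain, read 12.83, 12.85 and 11.27 in hypomorph HSC and 6.71, 5.13 and 5.20 in MP (-6.63 ± 0.94, adjusted p = 3.64e-04). Jchain, which joins IgA and IgM units, fell by 5.06 ± 0.49. Both were also high in wildtype HSC, Igha at 13.40 and 13.43, and both are products of plasma cells. Other B-lineage genes did not share this level: the B-lineage list averaged 5.26 to 5.32 on the hypomorph HSC arrays, 5.11 to 5.16 on the MP arrays and 10.19 to 10.22 on the B arrays, and the part of plasma cells in the HSC sorts was not tested. Gimap8, a lymphocyte GTPase (-4.31), Vnn1, a pantetheinase (-4.18), Iigp1, an interferon-induced GTPase (-4.18), Ltb, lymphotoxin beta (-4.08), Fstl1, a secreted glycoprotein (-4.01), and the uncharacterised 1810073O08Rik (-4.01) followed, each called in the wildtype too. Gem, a small GTPase, was particular to the hypomorph by test: 8.27, 9.70 and 8.52 in HSC against 4.46, 4.48 and 5.46 in MP (-4.03 ± 0.42), with -0.47 in the wildtype (difference -3.56 ± 0.64, adjusted p = 0.00865). Wildtype HSC had 5.08 and 4.40, so that only hypomorph HSC were high.

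Cell division genes were called higher in MP in the wildtype and not in the hypomorph. Of 54 mitosis and spindle genes, 50 were higher and 1 lower in wildtype MP and 0 were higher in hypomorph MP, where 1, Kif23, was called lower (-0.83, adjusted p = 0.0408, a call lost in several alternatives). At an unadjusted p below 0.05 in limma, 2 were higher and 5 lower. Whether called or not, 17 of the 54 had a positive and 37 a negative hypomorph difference. The list's median log2 difference was -0.11 in the hypomorph and 1.40 in the wildtype, and 34 genes had a called difference between genotypes, all of them lower in the hypomorph. That count was 19 without MP wildtype replicate 1 and 20 without MP wildtype replicate 3. Of 48 DNA replication genes, 30 were higher in wildtype MP and 0 in hypomorph MP, with medians of 0.93 and -0.05, and 1 was higher in the hypomorph at an unadjusted p below 0.05. Cdc7, a kinase that fires replication origins, was the 1 called lower in hypomorph MP (-0.97, or -0.57 over all probe sets), a call lost in 6 alternatives (adjusted p up to 0.131). Their 14 called differences between genotypes were fewer without certain arrays, at 6 without MP wildtype replicate 1, 7 without HSC hypomorph replicate 2, HSC wildtype replicate 2, MP hypomorph replicate 2 or MP wildtype replicate 3, and 8 without MP hypomorph replicate 1. They numbered 25 without HSC hypomorph replicate 3. On the array means of the mitosis list, hypomorph HSC stood at 9.17, 9.13 and 9.03, hypomorph MP at 8.98, 8.88 and 9.11, wildtype HSC at 7.72 and 7.86, and wildtype MP at 9.29, 9.12 and 9.28. Hypomorph HSC were thus at the level of MP, and only wildtype HSC were low. The mean of 53 of the 54 genes was higher in hypomorph than in wildtype HSC.

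Single genes showed the same arrangement. Ccne2, cyclin E2 of the entry into S phase, read 7.50, 8.02 and 7.61 in hypomorph HSC and 7.53, 7.08 and 7.83 in hypomorph MP. These groups overlap, whereas wildtype HSC read 4.34 and 3.54 and wildtype MP 8.32, 7.44 and 8.29. The MP difference was -0.23 ± 0.29 in the hypomorph and 4.07 ± 0.33 in the wildtype (difference -4.30, adjusted p = 3.21e-04). Depdc1a, a mitotic protein, read 5.98, 7.02 and 7.85 in hypomorph HSC, 5.15, 6.46 and 6.46 in hypomorph MP and 3.09 and 3.03 in wildtype HSC. Its difference between genotypes, -4.75 ± 0.70, was among the largest (adjusted p = 0.00262). Ect2, an exchange factor of cytokinesis, had -0.10 in the hypomorph and 3.59 in the wildtype (difference -3.69, adjusted p = 0.00412), and Cdc6, a loader of replication origins, had 0.24 and 2.60 (difference -2.36, adjusted p = 0.00282). Esco2, a cohesin acetyltransferase, had -0.83 and 3.52 (difference -4.36, and -2.62 over all probe sets). Mcm4, a helicase subunit, had 0.56 and 3.28, but its difference between genotypes was lost in several alternatives, with an adjusted p of 0.124 without HSC wildtype replicate 2. Of 24 G1 cyclins, kinases and E2F genes, 2 were higher in hypomorph MP, Cdk6 (0.82) and Rb1 (0.82), both of which lost the call in alternatives, against 9 higher and 1 lower in the wildtype. Here 5 differences between genotypes were called, all lower, E2f8 among them (0.51 against 2.52, with the call lost when all probe sets were averaged).

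Upstream sequences of Depdc1a, Ect2 and Cdc6 are shown as examples of the cell division genes whose difference was not retained. In the first 2, capitals mark the CHR letters TTTGAA, a cell cycle homology element of mitotic promoters, and CCAAT, on either strand. In Cdc6 they mark the E2F letters TTTGGCG or TTTCCCG on either strand. The windows, each of 250 bases from RefSeq (GRCm38.p6), are chr3:159495183-159495432 (+ strand) for Depdc1a, chr3:27153879-27154128 (- strand) for Ect2 and chr11:98907901-98908150 (+ strand) for Cdc6. Ect2 has 2 start sites in the table, and the one farthest upstream was used.
Depdc1a: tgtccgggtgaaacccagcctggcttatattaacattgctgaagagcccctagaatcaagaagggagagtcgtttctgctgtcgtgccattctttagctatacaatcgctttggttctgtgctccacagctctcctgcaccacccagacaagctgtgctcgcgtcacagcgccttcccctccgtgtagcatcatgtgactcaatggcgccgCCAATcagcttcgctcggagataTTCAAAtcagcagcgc
Ect2: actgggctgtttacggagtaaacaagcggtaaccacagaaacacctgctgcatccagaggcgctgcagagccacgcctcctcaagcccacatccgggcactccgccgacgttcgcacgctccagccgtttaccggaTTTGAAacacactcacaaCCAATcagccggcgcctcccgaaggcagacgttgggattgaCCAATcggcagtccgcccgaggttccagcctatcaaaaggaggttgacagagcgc
Cdc6: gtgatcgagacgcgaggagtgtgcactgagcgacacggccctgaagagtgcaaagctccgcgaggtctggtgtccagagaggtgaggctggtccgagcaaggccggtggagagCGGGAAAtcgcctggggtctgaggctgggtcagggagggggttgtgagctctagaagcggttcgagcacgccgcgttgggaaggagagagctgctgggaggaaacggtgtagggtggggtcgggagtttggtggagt
Depdc1a held 1 CHR and 1 CCAAT match, Ect2 held 1 and 2, and Cdc6 held 1 E2F match. The window of Bub1, searched for the same letters as Ect2 but not printed, held 0 CHR and 2 CCAAT matches. Over the mitosis list, 18 of 46 promoters (39.1%) held the CHR letters and 33 (71.7%) CCAAT, beside 10.6% and 35.8% of all tested genes with a promoter. Among the list's genes with a called difference between genotypes, 10 of 30 promoters (33.3%) held CHR and 22 (73.3%) CCAAT. Of 40 replication promoters, 9 (22.5%) held the E2F letters, against 6.67%. The median CpG count was 18 for the mitosis list and 17.5 for the replication list. Among all 417 genes with a lower difference in the hypomorph, 336 had a promoter, with a median of 18 CpG, 17.6% with CHR and 11.3% with E2F letters. For genes called in the hypomorph comparison, fewer than 80% had a promoter in the table (79.4% of the higher and 79.2% of the lower), so their composition is not given.

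**Figure D3:**
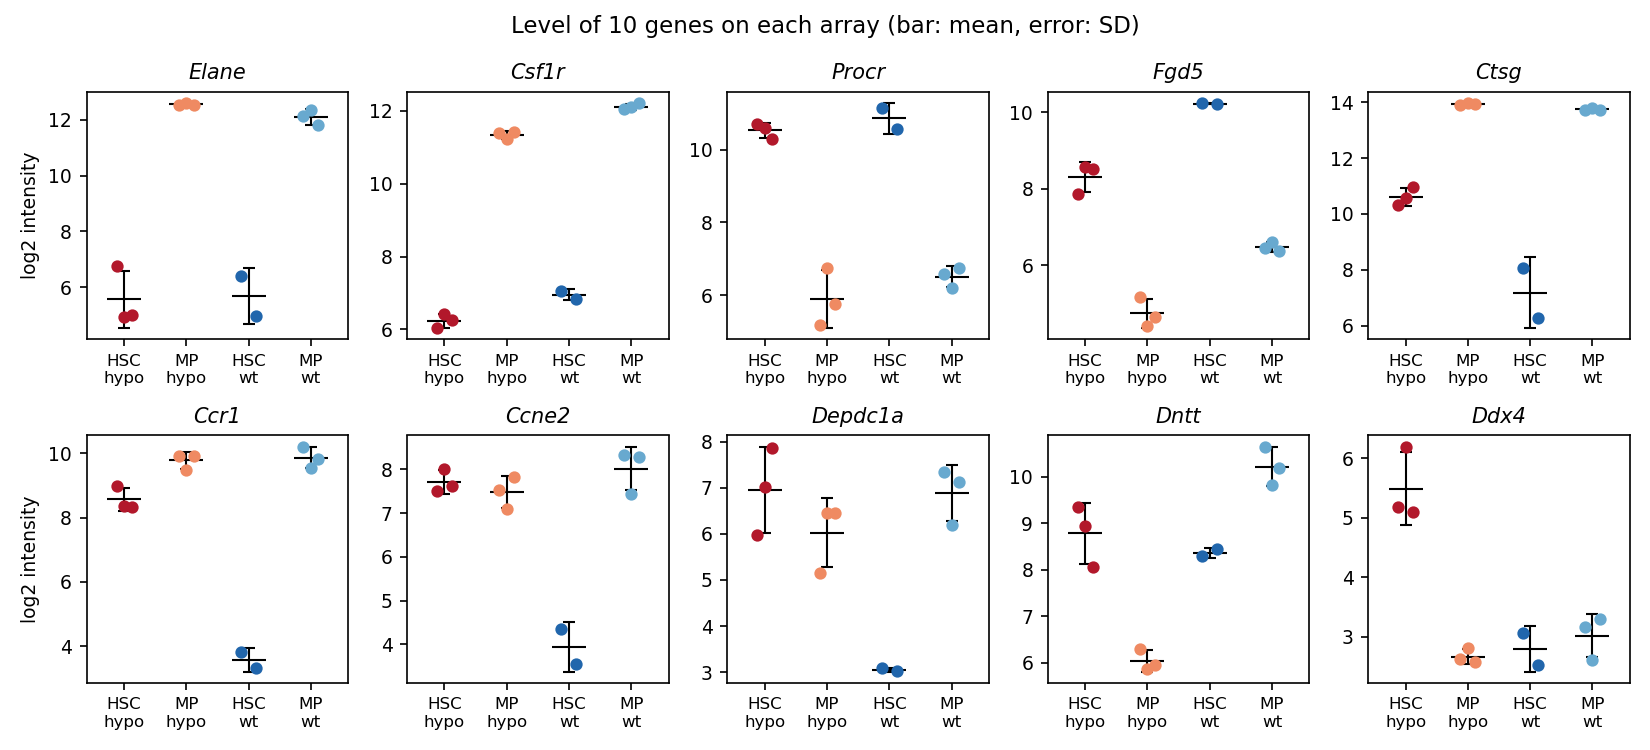
Each panel shows the log2 intensity of a gene on each array by group (hypo, Dnmt1 hypomorph; wt, wildtype; bar, mean; error, SD), on axes that do not start at 0. Elane, Csf1r, Procr and Fgd5 separate the cell types in both genotypes, Ctsg, Ccr1, Ccne2 and Depdc1a are low in wildtype HSC alone among the HSC groups, and Dntt and Ddx4 differ in direction or presence between genotypes.

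Ccr1, Ccr2, F13a1 and Chdh rose by less in the hypomorph than in the wildtype, and read higher in hypomorph than in wildtype HSC. Ccr1, a receptor for inflammatory chemokines, read 8.98, 8.37 and 8.34 in hypomorph HSC and 9.92, 9.48 and 9.92 in MP, a called rise of 1.21 ± 0.24 (adjusted p = 0.00429). In the wildtype, HSC read 3.83 and 3.32 and the rise was 6.29. The difference of -5.08 ± 0.36 (adjusted p = 2.13e-05) was the lowest of all genes and -2.92 over all probe sets. Ccr2, the monocyte chemokine receptor, rose by 2.01 ± 0.22 in the hypomorph and 5.55 in the wildtype (difference -3.54, adjusted p = 1.75e-04, and -1.71 over all probe sets). F13a1, the A chain of coagulation factor XIII, read 6.12, 5.67 and 7.15 in hypomorph HSC, 10.99, 11.04 and 11.03 in MP, and 3.43 and 3.34 in wildtype HSC. Chdh, choline dehydrogenase, rose from 8.11, 8.26 and 8.17 to 10.69, 10.13 and 10.62 in the hypomorph. Its rise of 2.30 compared with 6.46 in the wildtype (difference -4.17, adjusted p = 4.18e-05). Zfp229, a zinc finger gene, had -0.53 against 3.64, and Btnl9, a butyrophilin-like gene, 0.73 against 4.22, with neither called in the hypomorph. The difference between genotypes was -4.16 for Zfp229 and -3.50 for Btnl9, or -1.77 over all probe sets of Btnl9.

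Of 27 mast cell, basophil and eosinophil genes on the arrays, 10 did not pass the filter on intensity. Of the 17 tested, 10 were higher and 2 lower in hypomorph MP, against 8 and 1 in the wildtype. The list averaged 6.31 to 6.93 on the hypomorph HSC arrays and 7.94 to 8.16 on the MP arrays, which do not overlap. Hdc, the histidine decarboxylase that makes histamine, rose by 4.25 ± 0.31 and Ms4a2, the beta chain of the IgE receptor, by 3.42 ± 0.42. Prg2, an eosinophil granule protein, read 3.67, 4.03 and 3.48 in HSC and 8.26, 8.15 and 7.10 in MP (4.11 ± 0.84, adjusted p = 0.00543). Prg2 was not called in the wildtype, where 1 HSC array read 7.53 and the other 3.29. Cpa3, the mast cell carboxypeptidase, rose by 2.12 against 5.26 in the wildtype (difference -3.14, adjusted p = 0.00131). Fcer1a, the alpha chain of the IgE receptor, overlapped between hypomorph groups, with 7.71, 6.59 and 6.97 in HSC and 7.67, 8.05 and 7.44 in MP, but rose by 4.29 in the wildtype (difference -3.66, adjusted p = 0.00127). The list's 5 called differences between genotypes, all lower, were 3 without HSC hypomorph replicate 1, HSC wildtype replicate 1, any of the 3 MP hypomorph arrays, or MP wildtype replicate 1 or 3. They were also 3 with no filter on intensity. The 2 genes called lower, Slc18a2 (a monoamine transporter, -1.26) and Tpsb2 (a tryptase, -0.94), each lost the call in 8 alternatives. Among 28 genes of mature neutrophils and monocytes, 12 were higher and 1 lower, 11 and 1 of them also in the wildtype, including Ly86, a partner of the receptor RP105 (4.37), and Mpeg1, perforin-2 (3.74). This list averaged 6.70 to 7.19 in hypomorph HSC and 7.60 to 7.89 in hypomorph MP, beside the uncalled S100a8, Ngp and Camp, and the part of mature cells was not tested.

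Some genes ran in opposite directions in the 2 genotypes, and others differed mainly in the hypomorph or mainly in the wildtype. Dntt, the terminal transferase of lymphoid progenitors, read 9.34, 8.95 and 8.06 in hypomorph HSC and 6.30, 5.87 and 5.95 in hypomorph MP (-2.74 ± 0.29). In wildtype MP it read 10.64, 9.82 and 10.18, a rise of 1.85 over wildtype HSC (difference -4.59 ± 0.44, adjusted p = 2.21e-04). Here it was the MP groups that stood apart. Btla, an inhibitory lymphocyte receptor, fell by 1.74 in the hypomorph and rose by 0.77 in the wildtype (difference -2.50, adjusted p = 0.00131). Pde2a, a phosphodiesterase, rose by 1.38 ± 0.23 in the hypomorph, from 9.79, 9.68 and 9.5 to 11.09, 11.09 and 10.93, and fell by 1.59 in the wildtype, where HSC read 11.96 and 12.99 (difference 2.97, adjusted p = 8.88e-04). Cracr2b, a calcium channel regulator, had 1.13 in the hypomorph and -1.34 in the wildtype. BC018473, an uncharacterised transcript, rose by 2.92 ± 0.25 in the hypomorph alone, from 7.34, 6.23 and 6.99 to 9.68, 9.94 and 9.69, with -0.08 in the wildtype (difference 2.99, adjusted p = 0.00131, and 1.65 over all probe sets). Krt8, a keratin, and Htra3, a serine protease, had -2.15 and -2.69 in the wildtype and 0.50 and -0.12 in the hypomorph, neither called. Their differences between genotypes were 2.64 and 2.57, or 1.22 over all probe sets of Htra3.

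Erythroid and megakaryocyte genes moved both ways. Of 41 tested erythroid genes, 10 were higher and 4 lower in hypomorph MP, 9 and 4 of them called the same way in the wildtype, and the median was -0.02. Car1, a carbonic anhydrase of early erythroid cells, read 8.61, 7.79 and 7.12 in HSC and 10.09, 10.38 and 10.52 in MP, higher by 2.49 ± 0.38, and Klf1, the erythroid Krüppel-like factor, was higher by 1.61 ± 0.28. Gata1, the master regulator of the erythroid and megakaryocyte lineages, read 8.95, 8.34 and 8.62 in HSC and 9.36, 9.08 and 9.75 in MP. Although these arrays do not overlap, its difference of 0.76 ± 0.28 was not called (adjusted p = 0.101), while the wildtype had 2.36. The difference between genotypes, -1.60 (adjusted p = 0.0395), was lost in 11 alternatives, with an adjusted p of up to 0.14. Hemgn, a nuclear protein of blood progenitors, and Car2, a carbonic anhydrase, fell by 1.96 and 1.97. Of 24 megakaryocyte and platelet genes, 3 were higher and 3 lower: Pf4, platelet factor 4, rose by 1.67 ± 0.36, and Mmrn1 (multimerin, -2.16, or -1.13 over all probe sets), Tbxas1 (thromboxane synthase, -1.70) and Gp9 (a platelet glycoprotein, -1.20) fell. Among 26 heme and iron genes, 4 were higher and 0 lower (3 lower at an unadjusted p below 0.05), led by Alas1, the housekeeping first enzyme of heme synthesis (3.13 ± 0.30 against 3.10 in the wildtype), and Slc40a1, the iron exporter ferroportin (2.65 ± 0.36).

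Lymphoid genes were called in both directions. Of 30 lymphoid priming genes, 2 were higher and 7 lower in hypomorph MP, against 7 and 7 in the wildtype, with Satb1, a chromatin organiser, higher by 1.39 and Wfdc21, a secreted protease inhibitor family member, by 3.04. Of 34 B-lineage genes, 0 were higher and 5 lower (5 and 6 at an unadjusted p below 0.05), and of 13 T and NK cell genes, 2 were higher and 1 lower. The 2 were Gzmb, granzyme B (3.19 ± 0.41), and Nkg7, a granule membrane protein (1.49 ± 0.24), and the 1 was Thy1, which also marks HSC (-2.44 ± 0.23). Of 14 macrophage, stroma and endothelium genes, 2 were higher, Vcam1, an adhesion molecule (4.02 ± 0.32, 1.53 over all probe sets), and Vwf.

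Interferon response genes were lower in hypomorph MP and none was higher. Of 39 tested, 20 were lower, against 24 in the wildtype, 15 were called in both, and the median was -0.86 and -1.03. At an unadjusted p below 0.05, 24 were lower and 0 higher in the hypomorph. The list averaged 8.05, 7.84 and 7.62 on the hypomorph HSC arrays and 6.99, 6.89 and 6.93 on the MP arrays. Iigp1 read 7.97, 7.27 and 7.37 in HSC and 3.46, 3.35 and 3.26 in MP (-4.18 ± 0.27, 18.2-fold lower, adjusted p = 2.72e-07), beside -4.21 in the wildtype. Rtp4, a receptor chaperone, fell by 2.88 ± 0.34 (-1.62 over all probe sets) and Usp18, the ISG15 protease, by 2.11 ± 0.40. Ifit1, an RNA sensor, fell by 1.59, against -3.47 in the wildtype (difference 1.88, adjusted p = 0.0113, lost without HSC wildtype replicate 2 at 0.0542). All 16 tested MHC genes had a negative difference and 6 were called, 5 of them in both genotypes. H2-Aa, a class II chain, read 9.91, 9.65 and 9.45 in HSC and 6.57, 6.09 and 6.37 in MP (-3.32 ± 0.21, or -2.20 over all probe sets), and H2-Eb1 fell by 2.51.

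Immediate early and heat shock genes were called in the same direction. Of 32 tested, 10 were lower and 0 higher in hypomorph MP, against 16 and 5 in the wildtype, and 1 was higher at an unadjusted p below 0.05. Egr1, a growth factor response gene, read 11.03, 11.15 and 11.26 in hypomorph HSC and 9.0, 9.46 and 9.32 in MP. It fell by 1.89 ± 0.24, against -3.88 in the wildtype, where HSC read 11.99 and 12.73 (difference 1.99, adjusted p = 0.00908). Junb, an AP-1 subunit, did not overlap between hypomorph groups, yet was not called (-0.31), and fell by 2.24 in the wildtype (difference 1.93, adjusted p = 0.0112). In all, 6 genes of the list had a higher difference in the hypomorph, a count of 2 without HSC hypomorph replicate 2, HSC wildtype replicate 2, MP hypomorph replicate 2, MP wildtype replicate 1 or MP wildtype replicate 3, and of 3 without MP hypomorph replicate 1.

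Most called genes of DNA methylation, imprinting and chromatin were lower in hypomorph MP, as were 952 of the 1485 called over all genes. Of 22 genes of the methylation machinery, 1 was higher and 3 lower: Idh1, an isocitrate dehydrogenase, rose by 1.88 ± 0.19, Zbtb4, a methyl-CpG binding protein, fell by 1.28 ± 0.25 (-0.67 over all probe sets), and Dnmt1 and Dnmt3b (-0.64) fell with calls that alternatives ended. Uhrf1, the partner that brings Dnmt1 to hemimethylated DNA, read 10.88, 11.11 and 11.09 in hypomorph HSC and 10.99, 11.02 and 11.07 in MP, without separation. In the wildtype it rose by 1.97, from 9.55 and 7.93, but the difference between genotypes (adjusted p = 0.0272) was lost when any of 6 arrays was left out, HSC wildtype replicate 2 among them (0.0673). Hells, a remodeller needed for methylation, had -0.13 and 2.19 (difference -2.32, adjusted p = 0.00131). Of 25 imprinted genes, 1 was higher and 6 lower, all 6 called lower in the wildtype too. Cdkn1c, an inhibitor of cyclin-dependent kinases, fell by 2.43 ± 0.38, Sgce, a sarcoglycan, by 2.44 ± 0.42 (-1.38 over all probe sets) and Ndn, necdin, by 2.06 ± 0.21. The other probe sets of Ndn fell by more, with differences from -3.18 to -5.67. The difference of Ndn between genotypes, 1.68 (adjusted p = 0.00985), was -0.40 and not called over all its probe sets. Meg3, a maternally expressed non-coding RNA, fell by 0.75 in the hypomorph, a call lost in 11 alternatives, and had -3.47 in the wildtype (difference 2.72, adjusted p = 7.35e-04, and 1.25 over all probe sets). Plagl1, the 1 called higher (1.67), overlapped between groups and lost the call in 10 alternatives. Of 34 germline and pluripotency genes on the arrays, 17 passed the filter, and of these 1 was higher and 2 lower in hypomorph MP. Ddx4, the germ cell helicase Vasa, read 5.17, 6.19 and 5.10 in hypomorph HSC and 2.62, 2.80 and 2.57 in hypomorph MP. Wildtype HSC read 3.06 and 2.52, at the MP level, and the difference was -2.83 ± 0.29 in the hypomorph and 0.22 in the wildtype (difference -3.05, adjusted p = 0.00203). Of these groups only hypomorph HSC lay above the filter's 4.64, so Ddx4 passed with the help of the group where it was high. Rec8, a meiotic cohesin, fell in both, and Stag3, another, rose by 0.97 in the hypomorph with a call that alternatives ended. Of 29 polycomb genes, 3 were lower, Cbx6 (-1.03), Phc1 (-1.19) and Cbx7 (-1.05, a call lost in 12 alternatives), and Ezh2, the methyltransferase subunit, had -0.11 against 1.52 in the wildtype (difference -1.63, adjusted p = 0.0134).

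**Figure D4:**
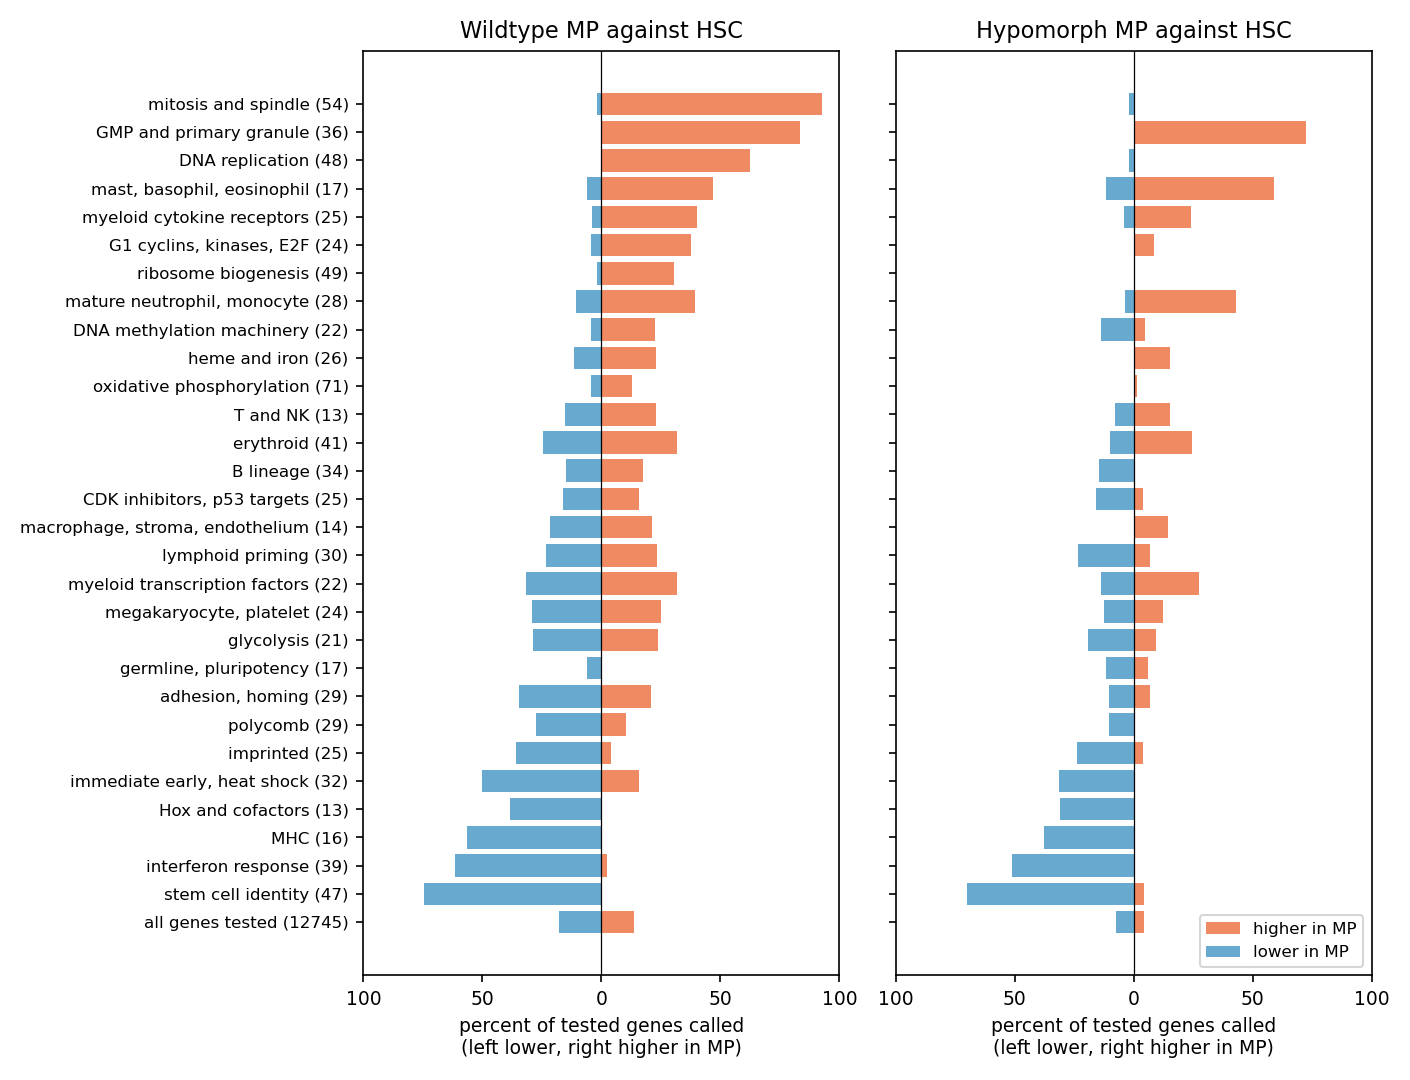
Bars give the percent of each list's tested genes (number in parentheses) called higher (right) or lower (left) in MP, in the wildtype and in the hypomorph, with all 12745 genes at the bottom. Granule, stem cell and interferon lists keep long bars in both panels, and the mitosis and DNA replication lists lose their bars in the hypomorph, from 50 of 54 and 30 of 48 genes to 0 called higher.

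Oxidative phosphorylation and ribosome biogenesis genes gave few calls in the hypomorph. Of 71 oxidative phosphorylation genes, 1 was called higher, Uqcrq, a subunit of respiratory complex III (0.94, a call that alternatives ended), although 61 of the 71 differences were positive with a median of 0.35. When arrays were centred on their median, the median over all genes moved from -0.03 to 0.07, and the list's shift is to be read beside that. Of 49 ribosome biogenesis genes, 0 were called in the hypomorph and 15 higher and 1 lower in the wildtype, with medians of 0.13 and 0.46. At an unadjusted p below 0.05 in limma, 6 were higher and 1 lower in the hypomorph. Glycolysis had 2 higher and 4 lower genes of 21, all 6 called in the wildtype too, with Aldoc, an aldolase, falling by 3.01 ± 0.27 (-1.80 over all probe sets) and Slc2a3, a glucose transporter, by 1.21 ± 0.19 (-0.64 over all probe sets), while Pgam1, phosphoglycerate mutase, rose by 0.91. No sex-linked gene of 4 was called, and 0 had an unadjusted p below 0.05. Their levels varied between arrays of 1 group. Eif2s3y, a Y-linked translation factor gene, read 9.31, 6.95 and 8.10 in hypomorph HSC, 9.22, 2.87 and 8.10 in hypomorph MP, 8.68 and 2.35 in wildtype HSC, and 9.35, 8.93 and 2.75 in wildtype MP. The part of this in the other results was not tested.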

How the data were processed

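RNA of sorted HSC, MP and B cell progenitors was hybridised to 1-colour Affymetrix arrays. The deposited log2 values were made by the authors with RMA, 1 per probe set, per the submitters' processing notes, which state no version. The log base was inferred from their range, 1.93 to 15.0. The deposited table holds 13 arrays normalized together (set 1) and 11 HSC and MP arrays normalized again (set 2), and set 1 was used. No read depth exists for arrays, and their number limits the precision.

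A single gene symbol belonged to 34958 of the 45101 probe sets, while 932 had several and 9211 had none. Each gene was represented by its probe set of highest mean and tested where 2 or more arrays were at or above 4.64, the median over the table. This left 12745 of 18194 genes. Such a filter keeps genes that are high in a single group, and counts for a list cover only its genes that passed. A 5-group model was fitted with limma 3.58.1 in R 4.3.3 (8 residual degrees of freedom), with Benjamini-Hochberg adjustment over all genes and a threshold of 0.05. Errors after ± are standard errors of the fit, n is 3 arrays a group (2 for wildtype HSC). The script was tested on simulated data.

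The lists and the genes named were chosen with earlier results of these data known. Named were the 10 highest and 10 lowest called genes, the cell type markers and Dnmt1 and Id2, up to 3 called members of each list in each direction, the 8 highest and 8 lowest differences between genotypes with up to 2 per list, and the 6 largest wildtype differences in each direction that were not kept. Alternatives were the second normalization, a replicate block, only the arrays compared, trended and robust priors, array weights, no filter or a 75th percentile filter, the mean of all probe sets, centring, a 2-fold minimum and leaving out each array. Promoters came from a RefSeq table (GRCm38.p6), and a set with a promoter for under 80% of its genes was not described.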

Additional observations from a re-analysis of the deposited data

Results flagged for a closer look

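The myeloid to stem cell difference was tested for a difference between hypomorph and wildtype across all genes, and 717 genes were called by limma. Among the genes named by the rules used here, 70 were called. Each value below is the hypomorph log2 difference (MP minus HSC) minus the wildtype one, so that a negative value means a lower difference in the hypomorph. No cause was tested for any of them.

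For 36 genes the call was made under every alternative in which the gene was tested (a stricter filter left some of them out). The negative values were those of Ccr1 (-5.08), Depdc1a (-4.75), Dntt (-4.59), Esco2 (-4.36), Ccne2 (-4.30), Chdh (-4.17), Zfp229 (-4.16), Ect2 (-3.69), Fcer1a (-3.66), Gem (-3.56), Ccr2 (-3.54), Btnl9 (-3.50), Ctsg (-3.24), Cpa3 (-3.14), F13a1 (-3.09), Ddx4 (-3.05), Ms4a3 (-2.93), Btla (-2.50), Itgal (-2.49), Cdc6 (-2.36), Hells (-2.32), Ezh2 (-1.63) and Fcgr3 (-1.61). The positive values were those of Pdzk1ip1 (1.76), Ccl4 (1.84), Junb (1.93), Egr1 (1.99), Tead2 (2.09), 4930426D05Rik (2.28), Bmp4 (2.39), Cracr2b (2.47), Htra3 (2.57), Krt8 (2.64), Meg3 (2.72), Pde2a (2.97) and BC018473 (2.99). Itgal, the alpha chain of the integrin LFA-1, read 9.28, 9.42 and 9.17 in hypomorph HSC and 9.58, 9.04 and 9.44 in hypomorph MP, which overlap, while wildtype HSC read 7.14 and 6.89. Over all probe sets its difference was -1.33. Bmp4, a growth factor, and Tead2, a transcription factor, read 6.31 to 6.63 and 6.30 to 6.86 in wildtype HSC, above every hypomorph array.

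For the other 34 the call was lost under at least 1 alternative. The negative values were those of Pkib (-3.17), Mcm4 (-2.72), Mfsd2b (-2.69), Btg1 (-2.54), Ms4a2 (-2.45), Plek (-2.24), Ddx21 (-2.11), H2-Ob (-2.05), Rhag (-2.04), E2f8 (-2.01), Uhrf1 (-1.97), Cdc7 (-1.95), Aco1 (-1.92), Slc16a1 (-1.81), Hdc (-1.72), Gata1 (-1.60), Atp5pb (-1.58), Slamf1 (-1.51), Tfrc (-1.44), Mpeg1 (-1.38) and Taf1d (-1.38). The positive values were those of Cd247 (1.16), Ltb (1.40), Blvrb (1.63), Ndn (1.68), Rsad2 (1.71), Jam2 (1.76), Wfdc21 (1.84), Gadd45b (1.85), Ifit1 (1.88), Col1a2 (2.03), Jund (2.10), Socs2 (2.62) and Selenom (2.89).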

How the results depend on the processing

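The number of arrays limits every count here. With array quality weights, whose default estimate did not converge and was replaced by the gene-by-gene one, the hypomorph comparison called 3270 genes and the difference between genotypes 2721. With the replicate number as a block, the hypomorph comparison called 1346 genes and the difference 375. Hypomorph HSC and MP arrays of the same number had correlations of 0.16, -0.20 and -0.14 between their deviations. With so few arrays these correlations cannot show whether equal numbers share an animal, which was not tested. The Y-linked Eif2s3y did not pair at replicate 2. It read 2.35 in wildtype HSC and 8.93 in wildtype MP, and 6.95 in hypomorph HSC and 2.87 in hypomorph MP. At the other replicate numbers that HSC and MP of a genotype share, it was high in both. With a 2-fold minimum the wildtype comparison called 2627 genes and the hypomorph comparison 1016. Over the fits that left out 1 array each, the hypomorph comparison called 972 to 2017 genes, the wildtype comparison 2548 to 4549, the difference between genotypes 241 to 1444, and genes called the same way in both 735 to 1212. All other alternatives gave 1138 to 1524 genes for the hypomorph comparison and 612 to 824 for the difference. The difference for Ndn changed sign to -0.40 when all probe sets were averaged. Of 129 named genes called in the hypomorph, 104 were called in every alternative in which they were tested, and of 70 with a called difference between genotypes, 36 were. Of 613 called genes with a further tested probe set, 105 had one of the other sign, none of them called. The cause was not tested for any of these changes.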

Other observations

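Of 29 adhesion, niche and homing genes, 2 were higher and 3 lower in hypomorph MP, all 5 called the same way in the wildtype. Besides Vcam1, Itga1, an integrin subunit that binds collagen, rose by 2.10 ± 0.26 (1.17 over all probe sets), and Esam, an adhesion molecule of endothelium and HSC, read 9.57, 8.63 and 8.42 in HSC and 5.68, 6.39 and 6.15 in MP. It fell by 2.80 ± 0.28 (limma adjusted p = 1.87e-05), against -3.66 in the wildtype. Of 25 cyclin-dependent kinase inhibitors and p53 target genes, 1 was higher and 4 lower, and 3 of the 4 were lower in the wildtype too. Gadd45b, a stress response gene, read 7.57, 7.41 and 7.93 in hypomorph HSC and 9.39, 9.60 and 8.79 in hypomorph MP, a rise of 1.62 ± 0.24 (1.08 over all probe sets), and had -0.23 in the wildtype. Sesn1, a p53 target, fell by 1.35 ± 0.23 in the hypomorph and had -0.75 in the wildtype, a difference that was not called.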
